A study of Mus musculus with 24 samples.

Results

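The miR-106b-25 cluster is a group of microRNAs (miRNAs, very short RNAs that repress messenger RNAs with matching sites) made from 3 hairpins inside the mouse gene Mcm7. Of its 6 mature arms in RefSeq, 4 were followed here: mmu-miR-106b, mmu-miR-106b* (the other arm of the same hairpin), mmu-miR-93 and mmu-miR-25. They were taken by exact name from the 650 miRNA names on the array, 611 of them of mouse. Whole-lung total RNA of C57BL/6 mice was measured on 24 single-colour Agilent arrays, 1 for each sample that the labels call a biological replicate. The groups were lungs at day 1, day 4, day 7 and day 14 after birth, with 5 arrays each, and at 6 weeks, written here as day 42, with 4 arrays. The labels name no treatment and no genetic change in any group. The title of the study names fetal lungs, but all sample labels, like the design text, state postnatal ages, and those were used. Nothing in the labels says how many animals gave each sample.

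Mcm7 encodes a subunit of the MCM helicase that opens DNA at the start of replication, and the cluster lies in an intron of that gene and is transcribed with it. Its miRNAs are paralogs of those of the miR-17-92 cluster, which is known for a role in the growth of the lung before birth and is abundant in dividing progenitor cells. A miRNA finds its targets mainly through its seed, bases 2 to 8 from the 5′ end. miR-106b and miR-93 are known to lower the cell cycle inhibitor Cdkn1a, and miR-25 the pro-apoptotic Bcl2l11.

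The mature sequences are printed because the members differ in seed and because 3 of them share a seed with a miRNA of miR-17-92. They were read from RefSeq (build GRCm38.p6), 5′ to 3′, with the seed in capitals.
mmu-miR-106b: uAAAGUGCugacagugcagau
mmu-miR-93: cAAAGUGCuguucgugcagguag
mmu-miR-17: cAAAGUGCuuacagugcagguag
mmu-miR-20a: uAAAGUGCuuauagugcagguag
mmu-miR-25: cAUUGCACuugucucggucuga
mmu-miR-92a: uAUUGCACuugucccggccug
mmu-miR-106b*: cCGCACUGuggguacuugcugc
The seed of mmu-miR-106b and mmu-miR-93 is carried by 7 of the 1679 mature mouse sequences in the table, and the seed of mmu-miR-25 by 6. The seed of mmu-miR-106b* is carried by no other sequence in that table. Counted from the 5′ end without gaps, mmu-miR-106b differs from mmu-miR-17 at 3 of 21 positions and from mmu-miR-93 at 5 of 21. mmu-miR-25 differs from mmu-miR-92a at 3 of 21. Whether the probes tell these near copies apart was not tested.

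The hairpin of mmu-miR-106b is printed because it gives rise to both arms compared within arrays, with the mature arms in capitals, the main arm first.
Mir106b: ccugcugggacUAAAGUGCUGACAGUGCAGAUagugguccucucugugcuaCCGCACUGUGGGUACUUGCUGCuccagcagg
This hairpin of 82 bases lies at chr5:138165737-138165818 (GRCm38.p6, minus strand). Mir93 lies at chr5:138165523-138165610 and Mir25 at chr5:138165321-138165404, both also on the minus strand. The 3 hairpins fit within 498 bases, and RefSeq places all 3 inside the span of Mcm7. Mcm7 messenger RNA was not measured by these arrays.

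Values are the deposited background-subtracted spot signals, averaged per probe and summed over the probes of a miRNA. For scaling, an array's values were divided by its 75th percentile, taken over the 228 miRNAs that were detected on every array, and brought back to a common level. Before scaling that percentile ran from 923 to 4954, and the 5 dimmest arrays were all of day 1 (replicates 1, 4 and 5) or day 4 (replicates 1 and 3), so brightness moved with age. Changes are log2 differences of group means with their standard error (SE), from limma over all 24 arrays, with p-values adjusted by Benjamini-Hochberg over the 322 miRNAs tested. A call is an adjusted p under 0.05. Between day 1 and day 42 the median change of those 322 miRNAs was -0.35 on the log2 scale, and 30.7% of the 199 called miRNAs rose. The median is set by the scaling: it was 0.30 when the percentile was taken over every name (all-name scaling), 0.0055 when scaled to the median, and 0.64 unscaled. It was 0.21 after quantile normalization, 0.31 in the authors' deposited table and -1.18 with another background correction (normexp). The share of called miRNAs that rose then came to 61.6% (all-name), 51.3% (median), 71.4% (unscaled), 57.2% (quantile), 60.2% (deposited table) and 16.2% (normexp). Members are therefore also given relative to that median.

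All 4 members passed limma's F test over the 5 ages, as did 65.5% of the miRNAs tested. The adjusted p of that test was 2.22e-09 for mmu-miR-106b*, 5.62e-05 for mmu-miR-93, 0.00511 for mmu-miR-25 and 0.0401 for mmu-miR-106b. From day 1 to day 42, 3 of the 4 members were called, all lower. Of all tested miRNAs 61.8% were called in that comparison and 42.9% were called as lower, so the members' share of calls is read against those shares. There was no overlap between day 1 and day 42 arrays for 2 members, mmu-miR-106b* and mmu-miR-93, against 39.8% of all tested. At day 14 against day 1, 2 members were called, both lower and both without overlap, beside 53.7% called, 32.6% called as lower and 35.4% without overlap. These comparisons share the day 1 arrays. In whole lung, fewer cells of a type and less of a miRNA per cell cannot be told apart.

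**Figure D1:**
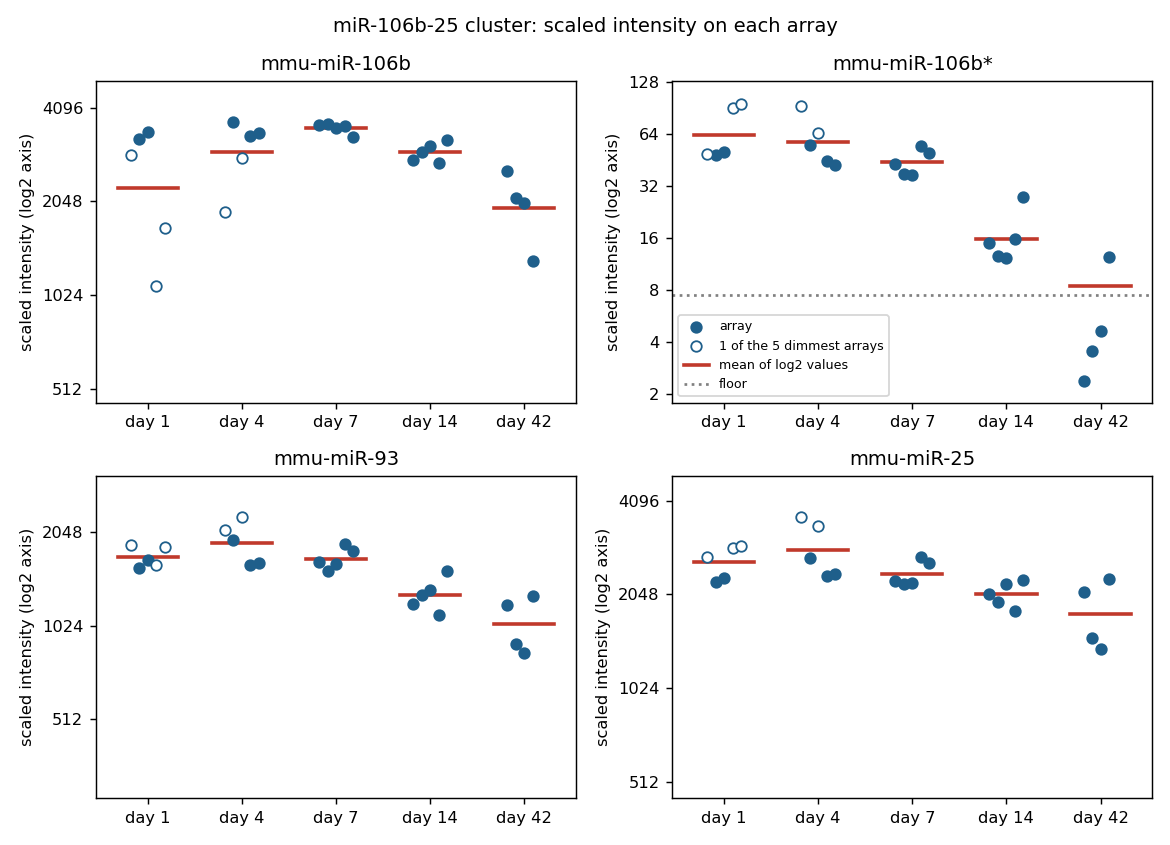
Scaled intensity (log2 axis, arbitrary units) of mmu-miR-106b, mmu-miR-106b*, mmu-miR-93 and mmu-miR-25 on each array by age; open circles are the 5 dimmest arrays, red bars are means of the log2 values (values under the dotted floor of 7.46 counted at the floor). mmu-miR-106b* drops from 37.0 to 95.5 at days 1 to 7 to 12.3 to 27.4 at day 14, while at days 1 and 4 mmu-miR-106b is lowest on dim arrays; with no scaling the drop of mmu-miR-106b* keeps its direction and the lower day 42 levels of mmu-miR-93 and mmu-miR-25 do not.

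The minor arm, mmu-miR-106b*, had the clearest course with age. Its scaled intensity at day 1 was 48.7, 48.2, 50.4, 89.6 and 95.5 on replicates 1 to 5. At day 4 it was 92.3, 55.2, 64.2, 44.5 and 42.0, and at day 7 it was 42.8, 37.5, 37.0, 54.5 and 49.8. The first 3 ages overlapped, and the 4 highest arrays were all among the dimmest. At day 14 it was 14.8, 12.5, 12.3, 15.8 and 27.4, with every array below every array of the earlier ages. At day 42 replicate 4 stood at 12.4, and the other 3 arrays, at 2.37, 3.55 and 4.60, lay under the floor of 7.46, below which values have no order.

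On the main scaling mmu-miR-106b* fell by at least 3.84-fold, or 1.94 on the log2 scale, from day 1 (n = 5) to day 42 (n = 4). This bound holds for that scaling only, on which the highest day 1 values are from dim arrays. The fitted change was -2.90 ± 0.27 (SE, limma's adjusted p = 2.56e-09). That fit rests on day 42 values at the floor and is not a measured size, and its p is no test of the bound. With normexp the fitted change was -1.70 (adjusted p = 0.0169, limma). Relative to the median of all tested miRNAs the fitted change was -2.55 on the main scaling, but only -0.52 with normexp. Normexp here adds an offset of 50 to every spot, which enters for each of this arm's 4 probes. Before scaling the arm's summed signal was 12.5 to 51.8 at days 1 to 14, so its normexp values depend on that offset. How far they do was not tested. The step from day 7 to day 14 held a fall of 1.47 ± 0.26 (adjusted p = 9.01e-05, limma), whereas the value was 0.31 and not called with normexp. In that step 2 members were called, both lower, beside 31.4% of all tested miRNAs called and 23.9% called as lower. This arm fell by 2.00 ± 0.26 from day 1 to day 14 (adjusted p = 7.25e-07, limma; -0.88 and not called with normexp). From day 14 to day 42 the fitted change, again on floored values, was -0.90 ± 0.27 (adjusted p = 0.0133, limma; not called with normexp), the only member called in that step, where 32.6% of all tested were called and 28.0% called as lower. Neither day 4 against day 1 (-0.15 ± 0.26) nor day 7 against day 4 (-0.38 ± 0.26) passed the test for this arm. No member was called in either early step, where 1.55% and 0.311% of all tested miRNAs were.

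The bounds at day 42 come from the probes. The array carries 4 probes for mmu-miR-106b*, and 1 of them gave nearly all of its signal. That probe had 5 of 5 spots well above background on every array of days 1, 4 and 7, between 2 and 5 of 5 at day 14, and 0 of 5 on every array of day 42. The other 3 probes together had 3 of 360 spots well above background. These bounds were taken on the main scaling, against the dimmest measured probe signals of the day 42 arrays. There the bright probe was at least 3.84-fold lower at day 42 than at day 1, at least 3.36-fold lower than at day 4 and at least 2.68-fold lower than at day 7. Against day 14 the same bound was 1.02-fold, so it sets almost no least size for the last step, which limma called on floored values. The scaled mean of the bright probe was 16.8 at day 14 and 9.53 at day 42, the latter from spots not well above background. The deposited detection flag nevertheless marks the miRNA as detected on all 4 arrays of day 42.

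Before any scaling, the bright probe of mmu-miR-106b* read 36.9, 35.7, 43.7, 34.6 and 38.9 at day 1, and 39.8, 44.8, 43.4, 45.4 and 39.9 at day 4. At day 7 it read 43.6, 38.4, 44.5, 45.1 and 46.5. Those 15 unscaled readings stayed between 34.6 and 46.5, while the 75th percentile of the same arrays ran from 923 to 2696. At day 14 the probe read 16.7, 15.4, 26.9, 20.5 and 31.9, and at day 42 it read 11.2, 13.2, 10.1 and 11.1. Every array of day 14 was below every earlier array, and every array of day 42 below every array of day 14, on this unscaled reading. Over the same days 1 to 7 the unscaled intensity of mmu-miR-93 ran from 638 to 1909 with its lowest reading on the dimmest array. All results of mmu-miR-106b* rest almost wholly on this 1 probe, and why it did not follow the brightness of these arrays was not tested. Divided by the 75th percentile, near-constant readings of the minor arm come out high on dim arrays. The fitted change from day 1 to day 42 was -2.32 with no scaling, -2.19 with brightness as a covariate and -2.54 without the 5 dimmest arrays, each called by limma, beside -2.90 on the main scaling.

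**Figure D2:**
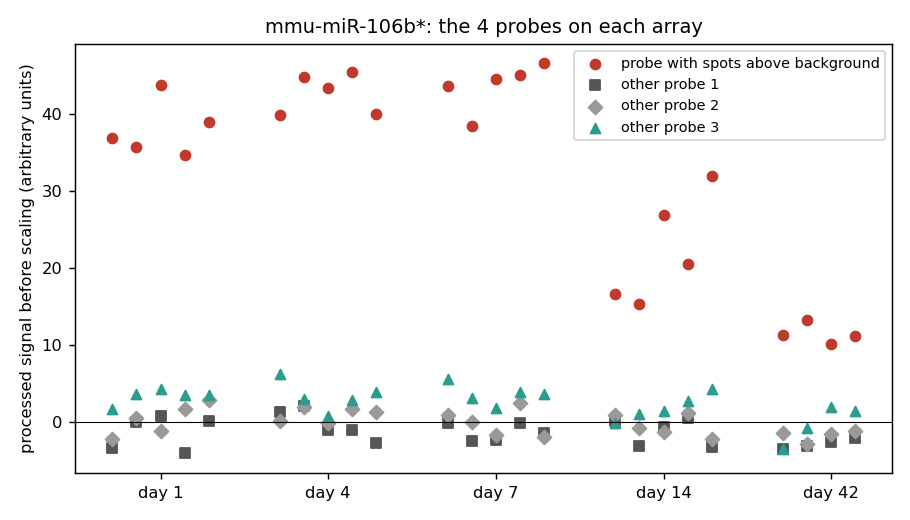
Processed signal before scaling (arbitrary units) of the 4 probes of mmu-miR-106b* on each array, by age. The probe with spots above background (red circles) reads 34.6 to 46.5 at days 1 to 7, 15.4 to 31.9 at day 14 and 10.1 to 13.2 at day 42, and the other 3 probes stay between -4.10 and 6.15 throughout.

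From day 1 to day 42 the main arm, mmu-miR-106b, changed less than its partner on the main scaling. At day 1 its scaled intensity was 2877, 3256, 3407, 1092 and 1686 on replicates 1 to 5, and at day 4 it was 1892, 3693, 2819, 3331 and 3399. At day 7 the arrays lay close together at 3612, 3627, 3530, 3566 and 3304. In scaled intensity the spread was thus widest at the ages that hold the dim arrays and smallest at day 7. On the log2 scale the SD was 0.71 at day 1, 0.38 at day 4 and 0.40 at day 42. At day 14 it was 2776, 2958, 3090, 2717 and 3218, and at day 42 it was 2554, 2105, 2017 and 1318. By mean level the order was day 7, day 4, day 14, day 1 and day 42, and each neighbour in that order overlapped the next.

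mmu-miR-106b changed by -0.22 ± 0.26 (SE) from day 1 to day 42 (95% interval -0.77 to 0.33), which did not pass the test (limma's adjusted p = 0.492). This is 0.14 above the median change of all tested miRNAs, a distance of 1.03 with normexp, -0.52 in the deposited table and -0.49 after quantile normalization. Day 14 differed from day 1 by 0.38 ± 0.25 (adjusted p = 0.190, limma). This was called as higher under all-name scaling (0.76, adjusted p = 0.00500, limma), median scaling (0.51, adjusted p = 0.0402) and no scaling (1.47, adjusted p = 0.00903), and turned to -0.35 with brightness as a covariate and -0.18 without the 5 dimmest arrays. The change from day 7 to day 14 was -0.26 ± 0.25 and was not called (adjusted p = 0.496, limma). That step was called as lower with brightness as a covariate (-0.51) and without the 6 dimmest arrays (-0.26). It turned to 0.10 under all-name scaling and 0.11 unscaled. The change from day 14 to day 42 was -0.60 ± 0.26 and was not called on the main scaling (adjusted p = 0.0956, limma). It was called as lower with quantile normalization (-0.64), the slide as a block (-0.69), brightness as a covariate (-0.54), without the 5 dimmest arrays (-0.60) and without day 1 replicate 4 (-0.60). The low arrays decide the first value: on the 5 dim arrays of days 1 and 4 the miRNA ran from 1092 to 2877, and on the other 5 arrays of those ages from 3256 to 3693. Without the 5 dimmest arrays it fell by 0.78 from day 1 to day 42 (adjusted p = 0.00115, limma), and with brightness as a covariate by 0.89 (adjusted p = 0.00202, limma). The direction turned with other scaling, to 0.44 under all-name scaling, 0.15 under median scaling and 0.79 unscaled. The 2 probes of mmu-miR-106b moved alike, with -0.23 and -0.18 from day 1 to day 42.

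mmu-miR-93, which has the seed of the main arm, was called lower at day 42. Its scaled intensity at day 1 was 1853, 1571, 1666, 1602 and 1832, at day 4 it was 2075, 1925, 2290, 1599 and 1632, and at day 7 it was 1640, 1532, 1615, 1867 and 1772. At day 14 it was 1202, 1287, 1329, 1109 and 1530, and at day 42 it was 1194, 895, 835 and 1273. All arrays of days 14 and 42 lay below all arrays of the 3 earlier ages, and those 3 ages overlapped each other. By mean level the order was day 4, day 1, day 7, day 14 and day 42.

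On the main scaling mmu-miR-93 fell by 0.72 ± 0.14 (SE) from day 1 to day 42 (adjusted p = 0.000140, limma), a value of -0.060 under all-name scaling and 0.28 unscaled. It fell by 0.41 ± 0.13 from day 1 to day 14 (adjusted p = 0.0135, limma; -0.026 under all-name scaling and, unscaled, 0.68). That call also ended with median scaling (-0.27), normexp (-0.34), brightness as a covariate (-0.13) and without the 5 dimmest arrays (-0.33). From day 7 to day 14 it fell by 0.39 ± 0.13 (adjusted p = 0.0269, limma), a call that ended under all-name scaling (-0.026), unscaled (-0.019), with median scaling (-0.23), with normexp (-0.30) and on leaving out day 7 replicate 4 or 5 or day 14 replicate 1 or 4 (adjusted p = 0.0721, 0.0620, 0.0666 and 0.0826, limma). From day 14 to day 42 the change of -0.31 ± 0.14 was not called (adjusted p = 0.102, limma), but it was with brightness as a covariate (-0.34) and without day 42 replicate 4 (-0.42). Relative to the median of all tested miRNAs the change from day 1 to day 42 was -0.37, and it was -0.36 under all-name scaling, -0.36 under median scaling and -0.35 unscaled. With quantile normalization it was -0.83 relative to that median and in the deposited table -0.90, whereas with normexp it was 0.48 above it. Its 2 probes gave -0.80 and -0.70.

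mmu-miR-25, which carries the other seed, showed a smaller and less firm change. Its scaled intensity at day 1 was 2706, 2241, 2312, 2879 and 2928, at day 4 it was 3633, 2679, 3403, 2351 and 2385, and at day 7 it was 2262, 2211, 2222, 2696 and 2583. At day 14 it was 2048, 1937, 2203, 1804 and 2279, and at day 42 it was 2078, 1486, 1367 and 2296. Replicates 2 and 3 of day 42 were the lowest of all, replicate 1 lay within the range of day 14 and replicate 4 just above it. By mean level the order was day 4, day 1, day 7, day 14 and day 42, with each neighbour overlapping the next.

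On the main scaling mmu-miR-25 fell by 0.56 ± 0.16 (SE) from day 1 to day 42 (adjusted p = 0.00533, limma), a value of 0.10 under all-name scaling and 0.45 unscaled. The call ended with median scaling (-0.19), with brightness as a covariate (-0.16) and without the 5 dimmest arrays (-0.37, adjusted p = 0.0882, limma). Relative to the median of all tested miRNAs it was -0.20, with -0.68 after quantile normalization, -0.74 in the deposited table, -0.0073 without the 6 dimmest arrays and 0.69 with normexp. No other comparison of mmu-miR-25 was called on the main scaling: from day 1 to day 14 it changed by -0.34 ± 0.15 (adjusted p = 0.0647, limma), and from day 14 to day 42 by -0.21 ± 0.16 (adjusted p = 0.373, limma). The former was called as lower with quantile normalization (-0.42, adjusted p = 0.00980, limma), in the deposited table (-0.41, adjusted p = 0.0121), without day 1 replicate 2 (-0.40) and without day 42 replicate 4 (-0.34), and as higher unscaled (0.75, adjusted p = 0.00271). Its 2 probes gave -0.58 and -0.55 from day 1 to day 42.

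**Figure D3:**
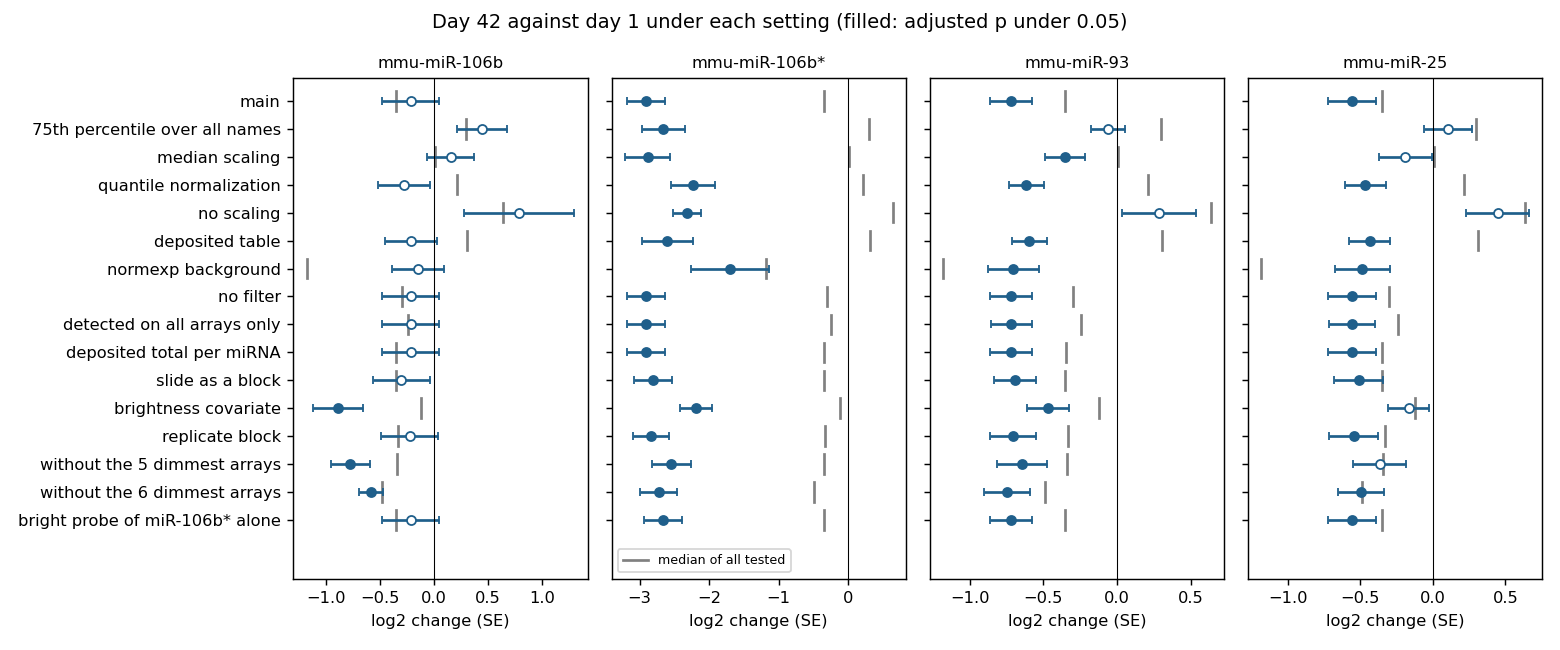
Log2 change from day 1 to day 42 of each member under each processing setting, with the standard error; filled points have an adjusted p under 0.05 and grey ticks are the median change of all tested miRNAs under that setting (the setting over all names is the all-name scaling). mmu-miR-106b*, with day 42 values at or near the floor, has fitted changes between -2.90 and -1.70 in the 16 settings, mmu-miR-93 and mmu-miR-25 move with the grey tick between the main, all-name, median and no-scaling settings and pass 0 with no scaling (mmu-miR-25 also under all-name scaling), and mmu-miR-106b lies on either side of 0.

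The arms of miR-106b come from 1 precursor, so the difference between their log2 values was compared within each array. A scaling factor cancels in this difference, apart from values at the floor, and only its change with age has a meaning, since levels of different probes cannot be set against each other. The difference was 5.89, 6.08, 6.08, 3.61 and 4.14 on replicates 1 to 5 of day 1 and 4.36, 6.06, 5.46, 6.23 and 6.34 at day 4. At day 7 it was 6.40, 6.60, 6.58, 6.03 and 6.05, at day 14 it was 7.55, 7.88, 7.97, 7.42 and 6.88, and at day 42 it was 8.42, 8.14, 8.08 and 6.73. On day 42 replicates 1 to 3 the minor arm is at the floor, so the first 3 of those values are set by the floor. At day 1 the difference had a mean of 5.16 ± 1.19 (SD, n = 5), at day 4 of 5.69 ± 0.82 (n = 5) and at day 7 of 6.33 ± 0.27 (n = 5). It was 7.54 ± 0.44 (n = 5) at day 14 and 7.84 ± 0.76 (n = 4) at day 42. Every array of days 14 and 42 stood above every array of days 1, 4 and 7, the closest being day 42 replicate 4 at 6.73 and a day 7 array at 6.60.

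From day 1 to day 42 the difference between the arms, taken with values at the floor, grew by 2.68 (two-sided exact permutation test, p = 0.0159, adjusted p = 0.0317 over 6 comparisons). With the minor arm of day 42 at its bound the growth was 1.73 and did not pass (adjusted p = 0.0952, exact permutation test). The difference grew by 2.38 from day 1 to day 14 and by 1.21 from day 7 to day 14 (exact permutation p = 0.00794 and adjusted p = 0.0238 for each). The changes from day 1 to day 4 (0.53), from day 4 to day 7 (0.64) and from day 14 to day 42 (0.30) did not pass the exact test, with adjusted p = 0.460, 0.155 and 0.460. The smallest p that this exact test allows is 0.00794 for 5 arrays against 5 and 0.0159 for 5 against 4. Leaving out any 1 of the 9 arrays of days 1 and 42 ended the call between those ages, with a growth of 2.30 to 3.06 and adjusted p from 0.0536 to 0.0714 (exact permutation test); the smallest p is then 0.0286 or 0.0357 before adjustment. The low values of day 1 replicates 4 and 5 (3.61 and 4.14) come from dim arrays. Without the 5 dimmest arrays the growth was 1.76 from day 1 to day 42 and 1.46 from day 1 to day 14, where so few day 1 arrays are left that the smallest possible exact permutation p is 0.133 and 0.0952. With brightness as a covariate the growth was 1.30 to day 42 and 0.88 to day 14, given without a test, and 0.70 from day 7 to day 14. The growth to day 42 was 1.95 with quantile normalization, whereas the deposited table gave a growth of 2.39, neither passing the exact test (adjusted p = 0.127 for each). With normexp the growth was 1.55 and 1.28, neither passing the exact test, and the step from day 7 to day 14 turned to -0.58. Within the 3 slides, each of which held 8 arrays, the growth from day 1 to day 42 was 3.40, 2.17 and 1.62. These rest on 1 day 42 array against 2 of day 1 in slides 1 and 3, and on 2 against 1 in slide 2. Both day 1 arrays of slide 1 were dim, and the day 42 values of slides 1 and 2 are set by the floor.

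**Figure D4:**
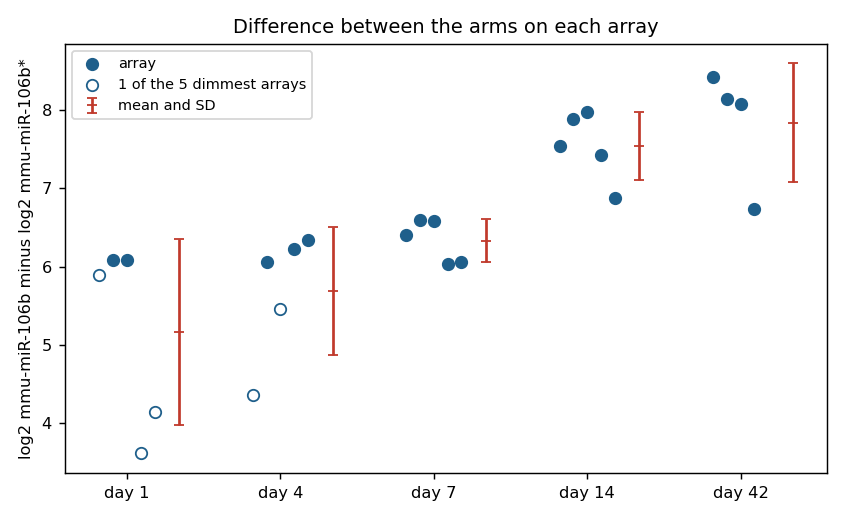
Log2 intensity of mmu-miR-106b minus that of mmu-miR-106b* on each array by age, with the mean and SD beside; open circles are the 5 dimmest arrays. The arrays of days 14 and 42 lie between 6.73 and 8.42, and those of days 1 to 7 between 3.61 and 6.60, with the lowest on dim arrays; the 3 highest values of day 42 are set by the floor of the minor arm.

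The remaining pairs of members were compared in the same way, over 10 tests. The differences of mmu-miR-93 and mmu-miR-25 from mmu-miR-106b* grew by 2.18 and 2.34 from day 1 to day 42 (exact permutation test, adjusted p = 0.0317 for each), and by 1.59 and 1.66 from day 1 to day 14 (adjusted p = 0.0265 for each). With the minor arm of day 42 at its bound the former were 1.22 and 1.38 (adjusted p = 0.0317 for each, exact permutation test). The growths to day 14 were 0.81 and 0.96 with quantile normalization and 0.86 and 0.99 in the deposited table, still called, and 0.54 and 0.61 with normexp, not called. With normexp those to day 42 were 1.00 and 1.21, also not called. The difference of mmu-miR-93 from mmu-miR-25 changed by -0.16 from day 1 to day 42 and by -0.062 to day 14, neither passing (adjusted p = 0.159 and 0.485, exact permutation test). The difference of mmu-miR-106b from mmu-miR-93 grew by 0.79 to day 14 (adjusted p = 0.0265, exact permutation test), a growth of 0.16 without the 5 dimmest arrays and of 0.73 with normexp (adjusted p = 0.0794), where it was not called. That call, and those to day 14 against mmu-miR-106b*, ended on leaving out day 1 replicate 1, 2, 3 or 5 (adjusted p = 0.0529, exact permutation test). The calls to day 42 ended without any of the same arrays or any array of day 42 (adjusted p from 0.0571 to 0.0714, exact permutation test). With 1 array left out, the smallest p that the exact test allows before adjustment is 0.0159 to day 14 and 0.0286 or 0.0357 to day 42. No other pair passed.

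The paralogous clusters were taken as a list of 19 names, 18 of them on the array and 11 tested. From day 1 to day 42, 9 of the 11 fell and 0 rose by limma's test, where 42.9% of all tested miRNAs were called as lower. The median change of the 11 was -0.88 beside -0.35 for all tested miRNAs. With no scaling 1 of the 11 fell and the median was 0.12, and under all-name scaling 5 fell and the median was -0.22. The deposited table gave 6 that fell. With normexp all 11 fell, with a median of -1.16 beside -1.18 for all tested miRNAs. Among the seed partners, mmu-miR-17 fell by 1.25 ± 0.14 (adjusted p = 2.92e-08, limma), mmu-miR-20a by 0.88 ± 0.17 (adjusted p = 9.33e-05, limma) and mmu-miR-92a by 0.78 ± 0.27 (adjusted p = 0.0144, limma). mmu-miR-18a, of the same cluster with a seed that no member has, fell by 2.11 ± 0.28 (adjusted p = 5.94e-07, limma). The minor arms mmu-miR-17* and mmu-miR-20a* fell by 1.31 ± 0.12 and 1.16 ± 0.18. Whether the arms of these hairpins change less unequally than those of miR-106b was not tested. mmu-miR-19a (-0.64 ± 0.41) and mmu-miR-32 (0.41 ± 0.92) did not pass. At day 14, where 32.6% of all tested miRNAs were called as lower than at day 1, 6 of the 11 fell and 0 rose, with a median of -0.42 beside -0.17. That count was 3 under all-name scaling and 0 with no scaling or with normexp.

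**Figure D5:**
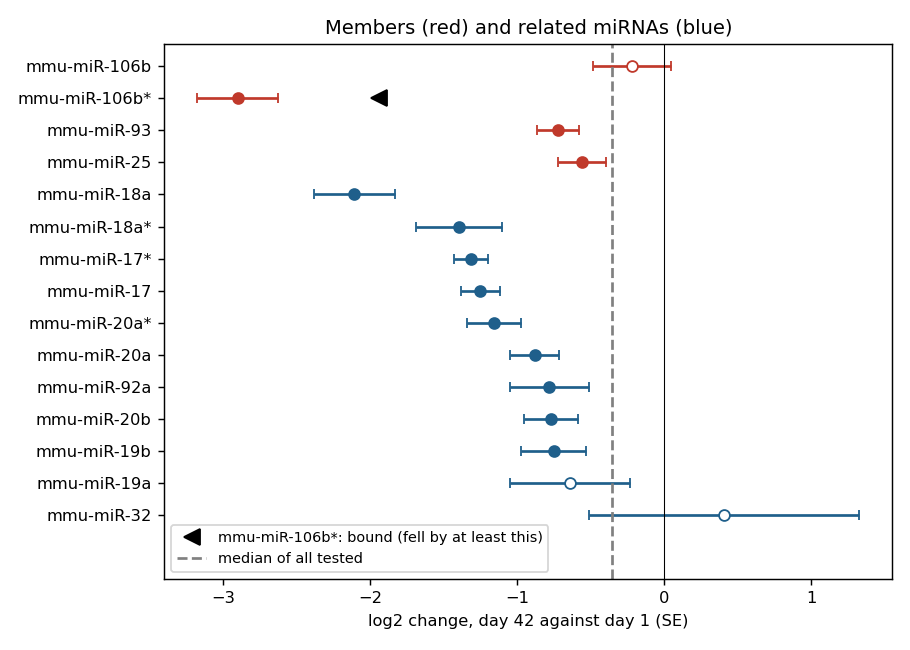
Log2 change from day 1 to day 42 with its standard error for the 4 members (red) and the 11 tested miRNAs of the paralogous list (blue); filled points have an adjusted p under 0.05 and the dashed line is the median of all tested miRNAs, -0.35. The fitted -2.90 of mmu-miR-106b* rests on values at the floor, as does much of that of mmu-miR-18a*. The black triangle at -1.94 is the least fall the probe signals allow for mmu-miR-106b* on the main scaling. mmu-miR-18a, measured at both ages, lies at -2.11. With no scaling the median of the list is 0.12 and the changes of mmu-miR-93 and mmu-miR-25 are above 0.

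Set against their seed partners within arrays, mmu-miR-106b rose relative to mmu-miR-17 by 1.12 from day 1 to day 14 (exact permutation test, adjusted p = 0.0476 over 6 tests), and the difference of 1.03 to day 42 did not pass (adjusted p = 0.127, exact permutation test). mmu-miR-25 rose relative to mmu-miR-92a by 0.50 to day 14 (adjusted p = 0.0476, exact permutation test), and the difference of 0.22 to day 42 did not pass (adjusted p = 0.381, exact permutation test). Leaving out 1 of day 1 replicates 1, 2, 4 and 5 or of day 14 replicates 1, 3, 4 and 5 ended both day 14 calls (adjusted p = 0.0952, exact permutation test). The smallest p that the exact test then allows is 0.0159 before adjustment. When leaving out 1 array the values ran from 0.86 to 1.29 for mmu-miR-106b and from 0.40 to 0.58 for mmu-miR-25. Neither passed with quantile normalization (0.58 and 0.64, adjusted p = 0.365 and 0.143), in the deposited table (0.58 and 0.64, adjusted p = 0.413 and 0.143) or with normexp (1.11 and 0.43, adjusted p = 0.270 and 0.0952), by the same exact test. Both day 14 values were smaller without the 5 dimmest arrays, at 0.50 and 0.21, and there the test cannot reach the threshold. On the dim arrays of days 1 and 4 mmu-miR-92a ran from 3480 to 5230, and on the other arrays of those ages from 2312 to 2847, the opposite of mmu-miR-106b. mmu-miR-93 and mmu-miR-20a differed in change by 0.16 to day 42 and 0.012 to day 14 (adjusted p = 0.648 and 0.921, exact permutation test).

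Of the remaining arms of the cluster, mmu-miR-93* was marked as detected on 1 of 24 arrays. The array carries no name mmu-miR-25*, so that arm could not be followed under that name.

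Markers of the cells of the lung moved over the same ages, and their part in the members' changes was not tested. All 6 leukocyte miRNAs, among them the haematopoietic miR-142 arms and the myeloid miR-223, were called higher at day 42 than at day 1, with summed scaled intensity of 5131 to 8884 at day 1 and 13059 to 16286 at day 42 (5 of 6 called with quantile normalization, the deposited table, normexp or brightness as a covariate, without the 5 dimmest arrays or without day 1 replicate 2). Both endothelial arms of miR-126 were called higher, with sums of 32949 to 50794 and 64389 to 86367. Of these arms 1 was called with quantile normalization, normexp, the slide as a block, brightness as a covariate, without the 5 dimmest arrays, and on leaving out day 1 replicate 1 or 4 or day 42 replicate 3 or 4. Of the 5 mesenchyme and smooth muscle miRNAs, 3 were called lower, with sums of 19363 to 25831 and 12355 to 15181 (1 called lower and 2 higher with no scaling). Of the 3 red blood cell miRNAs 0 changed by limma's test, and of the 5 epithelial miRNAs 1 was called higher. Under all-name scaling 2 and 3 of them were called higher, under median scaling 2 and 2, and with no scaling 2 and 4. Without the 5 dimmest arrays 1 red blood cell miRNA was called lower and 0 epithelial ones were called. Striated muscle miRNAs summed to 38306 on day 1 replicate 2 and to at most 5909 at the 4 later ages. The counts of calls on the main scaling stand beside 61.8% of all tested miRNAs called between day 1 and day 42, and 42.9% called as lower. None of these lists had a member that went undetected at any age.

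By the root mean square (RMS) difference of the 5 age means, each profile centred on its own mean, the 224 other miRNAs detected on all arrays were ranked for likeness to each member. With its day 42 mean partly at the floor, mmu-miR-106b* was nearest to mmu-miR-351 (RMS 0.098 on the log2 scale, beside a median of 1.09 over the 224), then mmu-miR-296-5p (0.20) and mmu-miR-154 (0.23). For mmu-miR-106b they were mmu-miR-152 (0.096), mmu-miR-669f (0.097) and mmu-miR-143 (0.11), beside a median of 0.44. For mmu-miR-93 they were mmu-miR-324-3p (0.054), mmu-miR-199a-3p (0.065) and mmu-miR-28 (0.076), and for mmu-miR-25 mmu-miR-324-3p (0.041), mmu-let-7e (0.048) and mmu-miR-15b (0.055). mmu-miR-93 and mmu-miR-25 were 0.089 from each other, whereas the arms of miR-106b were 1.04 apart.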

How the data were processed

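The deposited files give a spot-level intensity for each array. Per the file headers these were background-subtracted by the authors in Agilent Feature Extraction 10.7.1.1, and the submitters' processing notes give the same version. Per the labels, 100 ng of total RNA was labelled with Cy3. The authors' deposited table of log2 values for the series served as an alternative, and how it was made is not given in the sources used here. Spots marked as outliers (319 to 523 per array) were left out, probe means were summed per miRNA, each array was scaled as described, values under a floor of 7.46 (2.90 on the log2 scale) were set to it, and log2 was taken. No miRNA spot was saturated. limma 3.58.1 in R was fitted to 24 arrays in 5 age groups with 19 residual degrees of freedom. It was tested on simulated data. Exact permutation tests used scipy. The p-values measure the spread between samples that the labels call biological replicates. The members, the paralogous list and the marker lists were chosen with earlier results of these data known. The miRNAs named are the members, the paralogous list, the marker lists, and the 3 miRNAs nearest to each member in profile. For normexp (offset 50) the spot median signal was used, as the files hold no mean signal. The offset was added before probes were summed and arrays scaled. The normexp values of mmu-miR-106b* and of its differences from other members, whose signal is low, therefore depend on it and cannot decide the course of that arm. The number of arrays limits the precision.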

Additional observations from a re-analysis of the deposited data

Results flagged for a closer look

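In the 25 groups examined (4 members and the difference between the arms at 5 ages), 1 array stood apart by Dixon's test of the gap to the next array: mmu-miR-106b* on day 42 replicate 4, at 3.63 on the log2 scale. The other 3 arrays of that age were all at the floor of 2.90, so the gap is to values without an order and equals the whole range. That test marks about 1 in 20 groups by chance. The array was the dimmest of its age, with a 75th percentile of 1727 before scaling, and its bright probe read 11.1 unscaled, within the 10.1 to 13.2 of that age.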

How the results depend on the processing

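The alternatives covered scaling, source table, background correction, filter, probe summary, slide, brightness, the replicate block, left-out arrays and, chosen after seeing the data, the bright probe of mmu-miR-106b* alone and leaving out the 6 dimmest arrays, the arm difference with brightness, and day 42 of mmu-miR-106b* at its bound. Over all results and alternatives, 1603 values kept direction and side of the threshold, 107 lost the call, 23 gained one and 42 turned sign, and 9 moved (5 counts of the paralogous list by over 1.5 times, and arm differences by more than the SD within ages). The cause was not tested. Many of the 1603 could not change. A scaling factor cancels in a difference within an array, apart from the floor, and leaving out an array of another age does not alter a pair's difference. That count is therefore no measure of how firm the results are. From day 1 to day 42, mmu-miR-106b was 0.44 under all-name scaling, 0.15 under median scaling, 0.79 unscaled, -0.89 with brightness, -0.78 without the 5 and -0.59 without the 6 dimmest arrays. mmu-miR-93 was -0.060 under all-name scaling and 0.28 unscaled. mmu-miR-25 was 0.10 (all-name), -0.19 (median scaling), 0.45 (no scaling), -0.16 (brightness) and -0.37 (5 dimmest out). The arm difference was 1.95 with quantile normalization, 2.39 in the deposited table, 1.55 with normexp, 1.30 with brightness, 1.73 at the bound, 1.62 within slide 3, 1.76 and 2.14 without the 5 and 6 dimmest (day 14: 1.28 with normexp, 0.88 with brightness, 1.46 without either set; day 14 to day 42 at the bound: -0.57), and 2.30 to 3.06 when leaving out 1 array, where none of the 9 fits passed after adjustment. Unscaled, mmu-miR-93 and mmu-miR-25 were called higher at day 14. To day 14, mmu-miR-106b was called higher under all-name scaling (0.76), median scaling (0.51) and unscaled (1.47), and became -0.35 with brightness and -0.18 without dim arrays, mmu-miR-93 0.68 with no scaling, and mmu-miR-25 0.037 under all-name scaling, 0.75 unscaled and 0.083 with brightness. From day 7 to day 14, all-name scaling gave mmu-miR-106b 0.10 and mmu-miR-25 0.14, no scaling gave 0.11 and 0.15, and normexp gave mmu-miR-106b* 0.31 and the arm difference -0.58. From day 1 to day 4, mmu-miR-106b* became 0.22 with no scaling, 0.025 in the deposited table and 0.11 with brightness, and it ran from -0.32 to 0.0032 when leaving out 1 array (the latter without day 1 replicate 5). From day 4 to day 7, no scaling gave mmu-miR-93 0.19 and mmu-miR-25 0.10; from day 14 to day 42, mmu-miR-25 was 0.066 under all-name and 0.023 under median scaling. Without the 5 dimmest arrays, mmu-miR-106b minus mmu-miR-93 became -0.13 at day 42, minus mmu-miR-25 -0.41 (day 14: -0.024), and mmu-miR-25 minus mmu-miR-92a -0.063; without the 6 dimmest, mmu-miR-106b minus mmu-miR-25 was -0.096 and -0.024. mmu-miR-106b minus mmu-miR-17 was -0.044 at day 42 in the deposited table. mmu-miR-93 minus mmu-miR-20a at day 14 was -0.043 (quantile), -0.038 (deposited table) and -0.028 (normexp); leaving out 1 array, it ran from -0.073 to 0.15 at day 14 (below 0 without day 1 replicate 1, 2 or 3) and from -0.018 to 0.30 at day 42 (below 0 without day 42 replicate 4). With the replicate block the arm difference grew by 2.60 to day 42, and no member's call changed there. Of 46 same-numbered pairs of arrays, 18 correlated above 0.1 (range -0.88 to 0.89). Pairs with unlike numbers were not compared, so this cannot decide whether the shared numbers pair the arrays. Signal over background limits mmu-miR-106b* most at day 42, where 0 of 20 spots of its bright probe are well above background. At day 14 it was 20 of 25 spots.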
